A study of Mus musculus with 20 samples.

Results

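Genes of the motile cilium were followed in whole-ovary RNA of the Ames dwarf mouse. The set was a fixed list of 41 genes chosen by known function, from the transcription factors that switch on ciliogenesis to the motor and structural proteins of the axoneme. A row was found for 38 of the 41 among the 23457 genes of each count table, 29 under the listed symbol and 9 under an older one (the axonemal dynein heavy chains are written Dnahc in the files). Dnah3, Dnah12 and Cdhr4 were not analysed here. All 38 passed the filter on low counts, which kept 16099 genes.

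The study compared ovaries of female mice of 2 genotypes at 2 ages, with 5 libraries in each of 4 groups, each library being taken as a separate mouse. Dwarf mice were homozygous for the df allele (df/df), and the normal controls were heterozygous carriers of it (N/df), so no group was free of the allele. Each genotype was sampled at 6 and at 22 months. Dwarf mice lack growth hormone, prolactin and thyrotropin. Polyadenylated RNA of frozen ovaries was sequenced, and levels are given as counts per 1000000 gene counts of a library (CPM). The labels name the tissue as ovary and do not say whether the oviduct or the bursa around the ovary was trimmed away.

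A motile cilium beats through rows of dynein arms that slide its outer microtubule doublets past each other, under the control of radial spokes and a central pair of microtubules. Foxj1 and the Rfx factors turn on the genes that build it. In the female tract such cilia stand on the multiciliated cells of the oviduct, which carry the egg, beside secretory cells that make the glycoprotein Ovgp1. The cells of the ovary itself mostly carry a single non-motile primary cilium, which shares intraflagellar transport genes with the motile kind but lacks the dynein arms.

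Rfx factors bind the X-box, an imperfect inverted repeat, and the promoters that hold a match show the sequence that several of these genes have in common. Promoter windows from 250 bases before to 50 bases after the start were taken from RefSeq (GRCm38.p6) for 35 of the 41 listed genes. Foxj1, Dnah3, Rsph1, Rsph4a, Tppp3 and Armc4 had no entry. An X-box was searched on both strands as GTTNCC, then 1 to 3 bases of any kind, then GNNNAC. It was found in 6 of 35 genes (17.1%), against 4.41% of all 27025 genes with a window. These 6 were Lrrc23, Ccdc113, Tekt4, Mns1, Zmynd10 and Spag6. The first 6 letters alone, GTTNCC, which every X-box match contains, was present in 29 of 35 (82.9%) against 48.8% of all genes. The forkhead motif GTAAACA, searched on both strands for its relation to Foxj1, was present in Ak7 alone (2.86% of 35) against 4.05% of all genes. These matches describe letters in a window and are not evidence of binding.

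The stretches below are written 5′ to 3′ on the strand of the gene, with the matched letters in capitals. They are shown because the matched letters can be compared between genes. The match in Lrrc23, a radial spoke protein, began 164 bases before the start and read in the reverse direction (chr6:124779854-124779916, minus strand).
Lrrc23: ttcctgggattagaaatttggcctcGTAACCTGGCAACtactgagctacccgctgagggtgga
In Tekt4, which encodes a tektin, it began 160 bases before the start, also in reverse (chr17:25471405-25471468, plus strand).
Tekt4: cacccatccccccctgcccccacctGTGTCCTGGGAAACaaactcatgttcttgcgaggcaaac
In Ccdc113, an axonemal coiled-coil protein, it ended at the last base before the start (chr8:95534061-95534099, plus strand).
Ccdc113: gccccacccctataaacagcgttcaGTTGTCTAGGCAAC
In Zmynd10, a dynein assembly factor, in Mns1, a protein of the microtubule lumen, and in the row named Spag6 the match lay just past the start, within the first exon, and only the match is printed.
Zmynd10: GTTTCCATGGCGAC
Mns1: GTTGCCGGGACAC
Spag6: GTTGCCCTGGAGAC
The forkhead match of Ak7, an adenylate kinase of cilia, began 131 bases before the start in reverse (chr12:105705826-105705882, plus strand).
Ak7: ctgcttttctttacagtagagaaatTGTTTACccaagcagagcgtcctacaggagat

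Several rows need care. The row named Spag6 lies at the chromosome 16 locus (16753016 to 16829363 in the deposited annotation of mm10) that RefSeq names Spag6l, and a related copy named Spag6 in RefSeq lies on chromosome 2. Dnah7a and Dnah7b are related copies on chromosome 1, and reads could be split between them. Exons of 6 members overlap exons of a gene on the opposite strand in the deposited annotation: Dnah11 with Cdca7l, Dnaic1 with Enho, Dnali1 with Gnl2, Spag17 with Wdr3, Ccdc39 with Ttc14 and Mns1 with Tex9. The strand setting of the counting is not given in the sources used here, so reads of such partners cannot be told apart.

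Library totals ranged from 1365640 to 36068284 gene counts, and 3 libraries stood apart. Normal 6-month replicate 2 had 0.51 CPM of the egg coat gene Zp3 where the other 4 of its group had 58.0 to 89.1, and the 7 luteal markers summed to 135 CPM there against 9666 to 12170. The shallowest library was replicate 3 of the young normal mice, and 7 members were at 0 in it, where 3 counts correspond to 2.20 CPM. These were Dnah11, Rsph4a, Spag16, Ccdc39, Ccdc40, Tekt4 and Enkur. The 8 B and plasma cell markers with a row summed in replicate 3 of the old normal mice to 1332 CPM against 61.0 to 189 in the rest of its group. Dwarf 22-month replicates 1 and 4 were the closest pair, with a chi-square of 2.46 per degree of freedom against 12.2 for the next pair, and they were counted as 2 samples. Whether this pair came from separate mice is not known here. The SDs and p-values of old dwarf mice take the pair as separate and do not allow for a shared origin. Counts of called members that changed without the 3 libraries that stood apart are given both ways.

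The summed level of the 38 genes showed how unequal the 6-month ovaries were. In normal mice at 6 months it was 350 CPM in replicate 1, 4172 in replicate 2, 216 in replicate 3, 209 in replicate 4 and 205 in replicate 5. In dwarf mice at 6 months it was 973, 1876, 295, 1100 and 269 CPM in replicates 1 to 5. At 22 months it was 2462, 1220, 908, 2396 and 3266 CPM in normal mice and 2116, 2564, 3127, 2091 and 1386 CPM in dwarf mice. So 4 of 5 young normal ovaries and 2 of 5 young dwarf ovaries carried little cilium RNA, while every ovary of 22 months carried at least 908 CPM. In bulk tissue, fewer ciliated cells and less RNA per cell cannot be told apart.

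The transcription factors came first in this order of control. Foxj1, the forkhead factor that drives motile ciliogenesis, was at 39.9, 908, 10.3, 3.43 and 4.80 CPM in normal mice at 6 months (replicates 1 to 5). In normal mice at 22 months it was at 352, 182, 106, 370 and 460 CPM. Dwarf mice had 132, 375, 8.01, 176 and 2.00 CPM at 6 months and 326, 467, 491, 339 and 229 CPM at 22 months. The highest and the lowest Foxj1 level of the study were thus both found at 6 months, in normal replicate 2 and dwarf replicate 5. The ranges of young and old overlapped in both genotypes, in each only through young replicate 2 (908 and 375 CPM). In normal mice the other young libraries were at 3.43 to 39.9 CPM, below the old ones at 106 to 460 CPM.

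Rfx2, a partner of Foxj1 on shared promoters, ran from 14.8 to 117 CPM at 6 months and from 24.6 to 80.5 CPM at 22 months. Rfx3, which also serves primary cilia and other tissues, was more even than Rfx2 in 3 of the 4 groups, by an SD of log2 CPM of 0.32 against 1.22 in young normal, 0.72 against 0.99 in young dwarf and 0.19 against 0.67 in old normal mice, and less even in old dwarf mice (0.33 against 0.20). It was at 5.91, 8.08, 5.13, 8.07 and 9.11 CPM in young normal mice and at 12.2, 10.5, 10.7, 11.6 and 14.6 CPM in old normal mice. In dwarf mice it was at 7.36, 6.71, 5.12, 9.84 and 2.63 CPM at 6 months and at 12.7, 14.6, 18.8, 15.5 and 10.2 CPM at 22 months. For Rfx3 the old libraries lay above the young ones without overlap in both genotypes, and normal 6-month replicate 2 did not stand out.

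**Figure D1:**
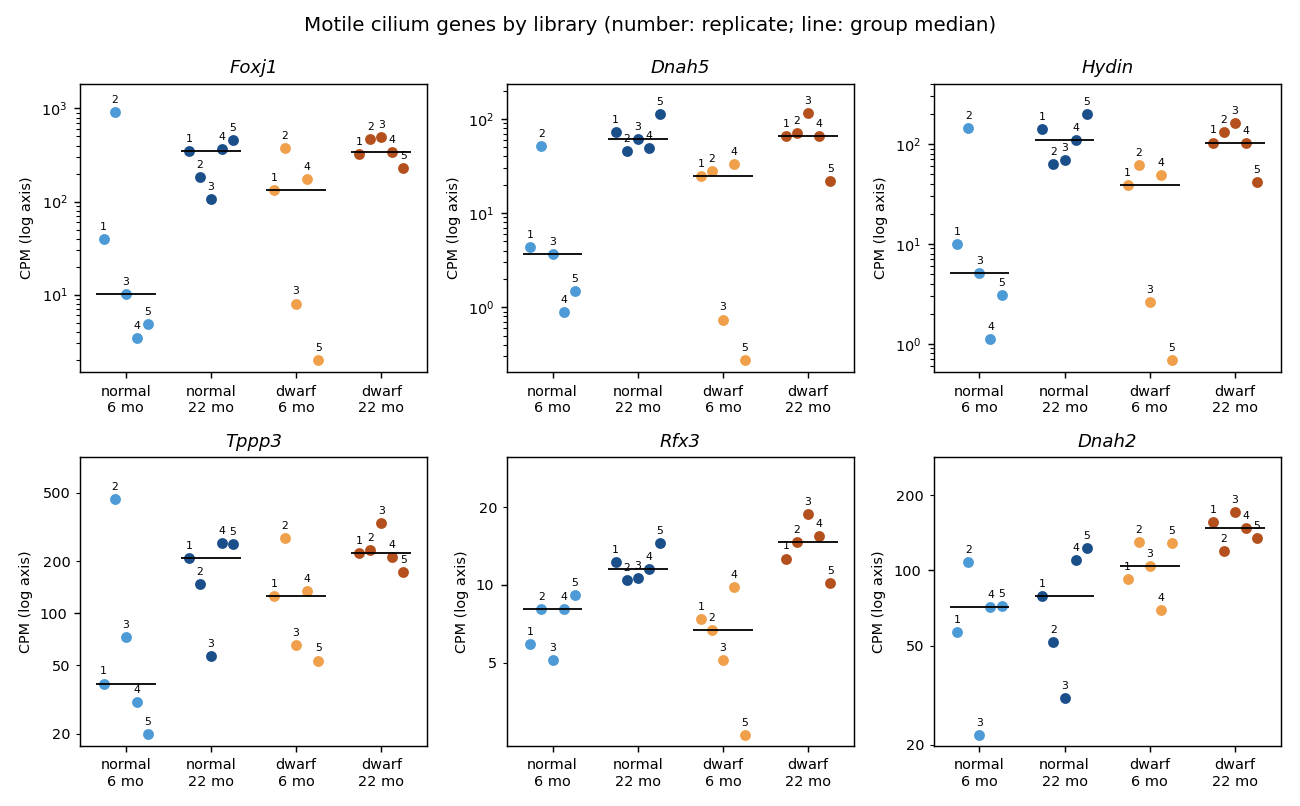
Levels of 6 motile cilium genes in each of the 20 libraries, in CPM on log axes, by group; points are libraries with their replicate number and lines are group medians. Foxj1, Dnah5, Hydin and Tppp3 put replicate 2 of the young normal mice near or above the old mice (Foxj1 at 908 CPM), while Rfx3 and Dnah2 do not show this gap.

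The heavy chains of the dynein arms are the ATPases that move the cilium. Dnah5, an outer arm heavy chain whose loss causes primary ciliary dyskinesia, was at 4.37, 51.0, 3.66, 0.89 and 1.48 CPM in young normal mice and at 72.6, 45.6, 61.5, 49.0 and 113 CPM in old normal mice. In dwarf mice it was at 24.9, 28.3, 0.74, 33.0 and 0.28 CPM at 6 months and at 66.1, 70.5, 117, 65.7 and 21.7 CPM at 22 months. Dwarf 6-month replicate 5 thus had the least Dnah5 of all, and in normal mice only replicate 2 of the young reached the range of the old.

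The other outer arm chains, Dnah9 and Dnah11, had medians of 4.74 and 3.57 CPM in young normal mice and of 129 and 29.7 CPM in old normal mice. Their medians in dwarf mice were 53.6 and 15.8 CPM at 6 months and 118 and 42.9 CPM at 22 months. Of the inner arm chains, Dnah1, Dnah6 and Dnah10 were likewise highest in replicate 2 of both young groups, with old-normal medians of 148, 73.3 and 97.4 CPM against young-normal medians of 6.59, 2.41 and 7.57 CPM. Dnah7a and Dnah7b were scarce, at no more than 9.25 and 15.3 CPM in any library.

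Dnah2, an inner arm heavy chain, was the exception among the motors. It was at 56.8, 108, 22.0, 71.4 and 72.0 CPM in young normal mice and at 78.7, 51.9, 30.9, 110 and 123 CPM in old normal mice. In dwarf mice it was at 92.6, 130, 105, 69.4 and 129 CPM at 6 months and at 157, 120, 171, 147 and 135 CPM at 22 months. Dwarf 6-month replicate 5, which had the lowest Foxj1 of the study, thus held more Dnah2 than any old normal library.

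The smaller dynein subunits showed wide gaps between young libraries. Summed over the intermediate chains Dnaic1 and Dnaic2, the inner arm light intermediate chain Dnali1 and the roadblock light chain Dynlrb2, the level was 24.4, 409, 5.86, 4.59 and 3.94 CPM in young normal mice and 64.6, 141, 5.66, 67.7 and 3.08 CPM in young dwarf mice. It was 63.6 to 265 CPM in old normal mice and 114 to 239 CPM in old dwarf mice. The highest library exceeded the lowest by 104-fold in young normal and 45.7-fold in young dwarf mice, but by 4.17-fold and 2.10-fold in the old groups. Ccdc114 and Armc4, which dock the outer arms, and the assembly factor Zmynd10 summed to 11.8 to 175 CPM in young normal mice and 32.6 to 120 CPM in old normal mice, with 8.65 to 74.4 and 61.1 to 109 CPM in young and old dwarf mice.

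The parts that regulate the beat were also highest in replicate 2 of both young groups. Radial spoke genes (the head proteins Rsph1, Rsph4a and Rsph9, with Lrrc23) summed to 29.2, 314, 22.7, 9.01 and 13.4 CPM in young normal mice, and to 58.5, 115, 11.2, 59.5 and 7.96 CPM in young dwarf mice. Hydin, a large central pair protein whose loss stiffens cilia and causes hydrocephalus in mice, was at 10.0, 145, 5.13, 1.12 and 3.08 CPM in young normal mice and at 143, 62.5, 69.0, 109 and 202 CPM in old normal mice. In dwarf mice Hydin was at 38.8, 61.6, 2.63, 49.4 and 0.69 CPM at 6 months and at 103, 133, 160, 101 and 42.0 CPM at 22 months. Old dwarf replicate 5 therefore lay below young dwarf replicates 2 and 4, and the groups overlapped. The other central pair genes, Spag16, Spag17 and the row named Spag6, had medians of 0.18, 0.64 and 0.73 CPM in young normal mice and of 2.51, 18.9 and 14.7 CPM in old normal mice.

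Ccdc39 and Ccdc40 form the molecular ruler that spaces the arms and spokes along the doublet. Their sum was 12.7, 220, 0, 3.52 and 3.69 CPM in young normal mice, the 0 being in the shallow replicate 3. The tektins Tekt1, Tekt2 and Tekt4 and the microtubule inner proteins Mns1 and Enkur summed to 11.2 to 271 CPM in young normal mice, with a median of 13.9, and to 40.7 to 184 CPM in old normal mice, with a median of 137. The same sum was 7.38 to 91.4 CPM in young and 70.0 to 153 CPM in old dwarf mice.

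Tppp3, a tubulin-binding protein that is abundant in ciliated cells, was at 39.0, 456, 72.5, 30.5 and 19.9 CPM in young normal mice and at 207, 148, 56.5, 256 and 251.9 CPM in old normal mice. In dwarf mice it was at 125, 273, 65.3, 134 and 53.1 CPM at 6 months and at 222, 233, 335, 210 and 174 CPM at 22 months. Tppp3 was thus at 19.9 CPM or more even in the libraries that had almost no Dnah5, and its lowest old normal library was replicate 3. Cdhr3, a cadherin of ciliated epithelium, and Ak7 had young-normal medians of 2.20 and 3.66 CPM and old-normal medians of 85.8 and 69.9 CPM.

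**Figure D2:**
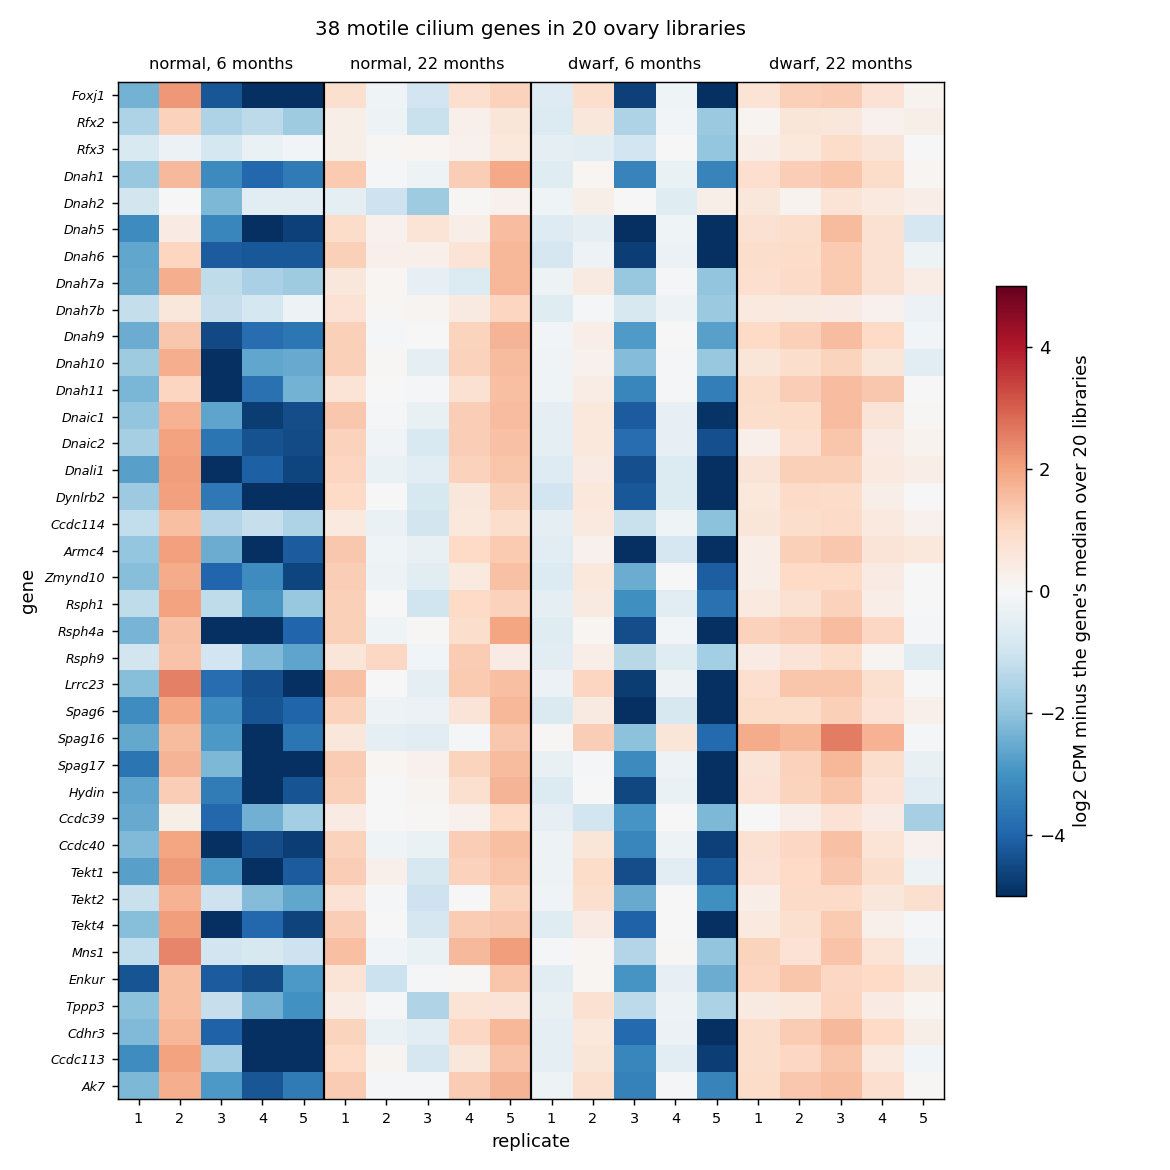
Level of each of the 38 genes in each library, as log2 CPM (0.5 added to each count) minus the gene's median over the 20 libraries; columns are libraries by group and replicate, rows are genes ordered by role, and the colour scale stops at 5 in either direction. Replicates 1, 3, 4 and 5 of the young normal and replicates 3 and 5 of the young dwarf mice are low for nearly all rows, with Rfx3 and Dnah2 paler than the rest.

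To compare levels between genes, counts were also divided by the annotated exon length, as CPM per kilobase of exon (RPKM). By the median over 20 libraries Tppp3 (157 RPKM), Foxj1 (79.7) and Dynlrb2 (42.7) were the most abundant members, and Dnah7a (0.21) the least. Heavy chains were at the lower end, from 0.21 RPKM for Dnah7a to 7.75 for Dnah2. In old normal mice the median of Foxj1 was 137 RPKM and that of Dnah5 3.94 RPKM.

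The spread within a group was measured as the SD of log2 CPM over its 5 libraries. Its median over the 38 genes was 2.53 in young normal mice and 2.04 in young dwarf mice, against 0.61 and 0.24 for all 16099 tested genes. In the old groups it was 0.86 in normal and 0.50 in dwarf mice, against 0.39 and 0.27 for all genes. The old dwarf values take the closest pair of libraries as separate mice. Among the 38, 28 in young normal and 34 in young dwarf mice exceeded the 90th percentile of all genes in their group, against 1 and 3 in the old normal and old dwarf mice. The widest were Ccdc40 in young normal (3.45) and Dnah5 in young dwarf mice (3.28), and the narrowest Rfx3 (0.32) and Dnah2 (0.38).

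**Figure D3:**
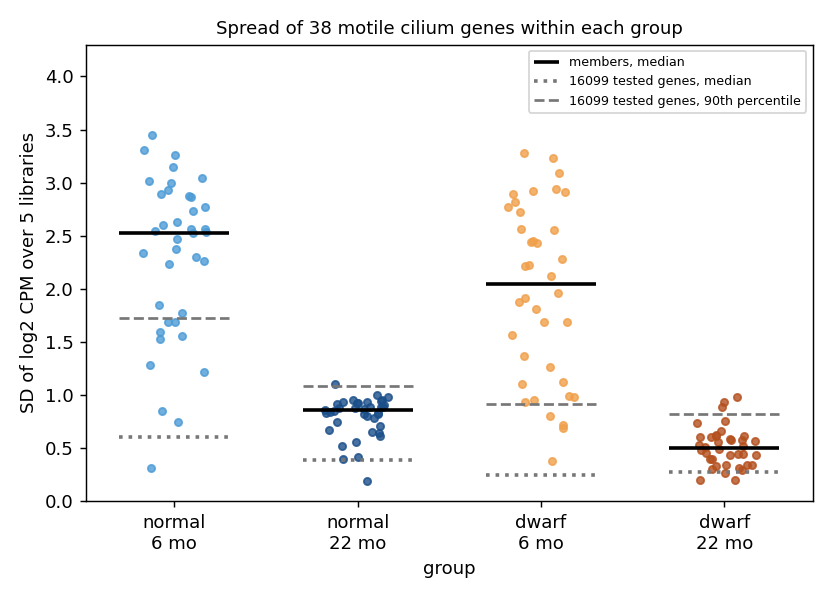
SD of log2 CPM over the 5 libraries of each group for each of the 38 genes (points), with their median (solid line) and the median and 90th percentile of all 16099 tested genes (dotted and dashed lines). The members' median is 2.53 and 2.04 in the young groups and 0.86 and 0.50 in the old groups.

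The extremes of nearly all members lay in a few libraries. In young normal mice replicate 2 was the highest for 37 of 38 genes. In old normal mice replicate 5 was the highest for 34 and replicate 3 the lowest for 27. Dwarf replicate 2 was the highest for 35 and replicate 5 the lowest for 29 at 6 months, and replicate 3 was the highest for 32 and replicate 5 the lowest for 34 at 22 months. As a description over 20 libraries, the Pearson r of a gene with the mean log2 CPM of the other members was 0.84 to 0.99 for 36 of 38 genes, and 0.73 for Rfx3 and 0.40 for Dnah2. These r share the same 20 libraries, which fall into separate clusters.

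Oviduct genes broadly followed the cilium genes across the 20 libraries, with exceptions in the old groups given below. Ovgp1, the secretory glycoprotein of the oviduct, was at 60.7, 4758, 46.1, 9.94 and 15.8 CPM in young normal mice and at 431, 970, 11.7, 492 and 20.0 CPM in young dwarf mice. It was at 1543, 1264, 2065, 1723 and 3053 CPM in old normal mice and at 1550, 2737, 2720, 1465 and 1873 CPM in old dwarf mice. Pax8, a transcription factor of the Müllerian epithelium, was at 3.21, 229, 12.5, 1.43 and 2.22 CPM in young normal mice and at 64.5 to 153 CPM in old normal mice. Ovgp1, Pax8 and Foxj1 were low in the same 6 libraries, young normal replicates 1, 3, 4 and 5 and young dwarf replicates 3 and 5. All 11 listed oviduct secretory and epithelial markers had a row and none was at 0 in any library. They summed to 108 to 7620 CPM in young normal, 2369 to 5114 in old normal, 101 to 1924 in young dwarf and 2374 to 4227 CPM in old dwarf mice. How far oviduct tissue in the sample accounts for the cilium values was not tested.

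Old normal replicates 2 and 3 departed from this order. Replicate 2 had the highest oviduct list sum of its group (5114 CPM) with a cilium sum of 1220 CPM, and it held 1131 CPM of Wfdc2 and 1543 CPM of Sprr2f, an epithelial gene on the uterine list, against at most 190 and 186 CPM in the other old normal libraries. Replicate 3 had more Ovgp1 than replicate 1 but the lowest cilium sum of the group. Old dwarf replicate 5 departed as well. Its cilium sum was the lowest of the old dwarf mice, at 1386 CPM. It had 1873 CPM of Ovgp1, against 1550 and 1465 CPM in old dwarf replicates 1 and 4. Surface epithelium markers also moved: the 8 with a row summed to 198 to 2211 CPM in young normal and 893 to 2144 in old normal mice, and to 205 to 842 and 971 to 1489 CPM in young and old dwarf mice. The 5 uterine markers summed to 6.96 to 3554, 718 to 2808, 7.54 to 596 and 339 to 1897 CPM in the same order of groups, and Sprr2f was at 0 in young normal replicate 4 and young dwarf replicate 4. The part of these tissues in the cilium values was not tested.

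**Figure D4:**
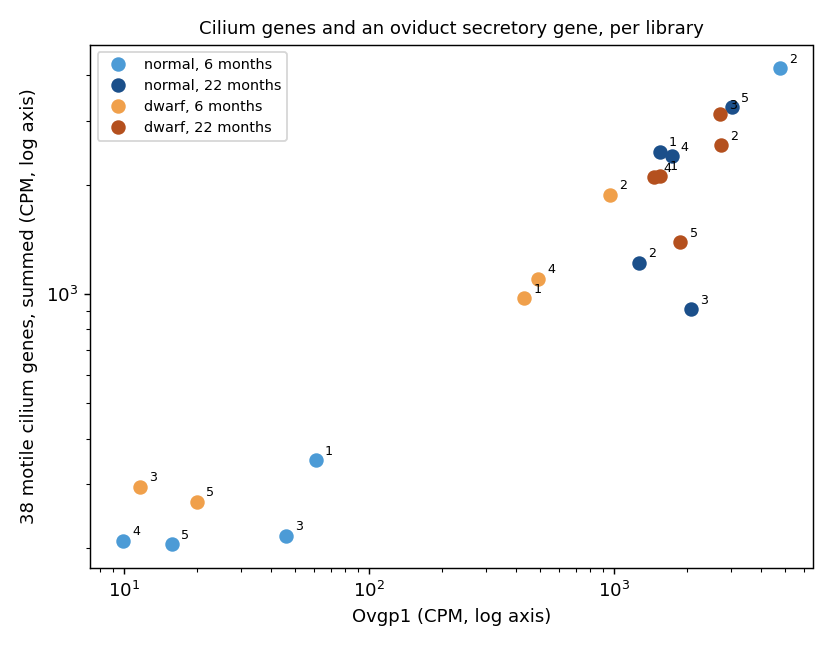
Summed level of the 38 motile cilium genes against Ovgp1 in the 20 libraries (CPM, both axes log), coloured by group and numbered by replicate. In 6 libraries, all of 6 months, Ovgp1 is at 9.94 to 60.7 CPM, and in the other 14 it is at 431 to 4758 CPM.

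Because the libraries fell into these separate clusters, the correlation of Foxj1 with Ovgp1 was not tested over all 20. Over the 14 libraries with more Ovgp1, log2 Foxj1 and log2 Ovgp1 gave Pearson r = 0.68 (two-sided permutation p = 0.00832, adjusted over 2 clusters 0.0166) and Spearman rho = 0.64 (permutation p = 0.0173, adjusted 0.0346). These 14 libraries come from all 4 groups and were permuted without regard to group. Differences between groups and between libraries of a group cannot be told apart in these values. The clusters were also split by Ovgp1 itself. Without the 2 libraries farthest from the median Ovgp1, r was 0.53 (permutation p = 0.0686), so the relation rests in part on those libraries. Without young normal replicate 2, the highest library for both genes, r was 0.57 over 13 libraries (permutation p = 0.0565) and rho 0.54 (permutation p = 0.0583), a check chosen after seeing the data. Over the 6 libraries with less Ovgp1, r was 0.73 (exact permutation p = 0.128) and rho 0.60 (exact permutation p = 0.242), and r was -0.55 without the 2 farthest.

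The balance of a ciliated cell gene to a secretory cell gene was taken as the log2 ratio of Foxj1 to Ovgp1 counts within a library. It was -0.60, -2.39, -2.13, -1.53 and -1.71 in young normal mice and -2.13, -2.80, -4.29, -2.22 and -2.73 in old normal mice. Its mean was -1.67 ± 0.69 (SD, n = 5) at 6 months and -2.83 ± 0.87 (SD, n = 5) at 22 months, a difference of -1.16 (two-sided exact permutation p = 0.0317, adjusted over 4 comparisons 0.127). In dwarf mice it was -1.69 ± 1.01 and -2.48 ± 0.35 (SD, n = 5 each), a difference of -0.80 (exact permutation p = 0.159, adjusted 0.317). Dwarf and normal mice differed by -0.01 at 6 months and by 0.35 at 22 months (exact permutation p = 0.984 and 0.532, adjusted 0.984 and 0.709). None of the 4 differences passed after adjustment, and the smallest p that 5 against 5 allows is 0.00794. With Tppp3 in place of Foxj1 the dwarf difference was -2.80 and passed (exact permutation p = 0.00794, the smallest possible, adjusted 0.0317). All values with old dwarf mice here take the closest pair of libraries as separate mice. If that pair came from the same mouse, the smallest possible p would be larger, which these p-values do not allow for. In the 14 other alternative settings the dwarf difference did not pass. Young dwarf replicates 3 and 5 had 173 and 721 counts of Ovgp1 and 119 and 72 of Foxj1, but 970 and 1915 of Tppp3. The part of Tppp3 RNA from cells without motile cilia was not tested.

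The first test asked which members differed between 22 and 6 months. In normal mice the log2 fold change was above 0 for 38 of 38 genes, with a median of 0.91 and a range from 0.22 (Dnah2) to 2.40 (Dnah5), against a median of -0.02 over all tested genes. No member passed in edgeR at an adjusted p under 0.05, where 6.75% of the 16099 tested genes did. An unadjusted p under 0.05 was reached by 4 of the 38 members and by 3748 of the 16099 genes. DESeq2 also called 0 members (11% of all genes). The smallest adjusted p was 0.114, for Dnah7b. Standard errors, derived here as the log2 change divided by the square root of F, were large: 2.40 ± 1.06 for Dnah5 (edgeR adjusted p = 0.183), 1.78 ± 1.08 for Hydin (adjusted p = 0.333) and 0.58 ± 1.23 for Foxj1 (adjusted p = 0.815).

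Of the libraries left out singly, only young normal replicate 2 changed this count in edgeR. That library was itself the highest of its group for 37 of the 38 genes. The young normal libraries left without it had 9.94 to 60.7 CPM of Ovgp1, against 1264 to 3053 CPM in old normal mice. In this fit age and Ovgp1 level therefore cannot be told apart. Without young normal replicate 2, 36 of 38 members were higher in old normal mice in edgeR (26.9% of 16272 tested genes were called), with a median log2 change of 4.25 over the 38. Foxj1 rose by 4.35 ± 1.14 (edgeR adjusted p = 0.00861), Dnah5 by 5.03 ± 1.12 (adjusted p = 0.0032), Hydin by 4.74 ± 1.06 (adjusted p = 0.00317) and Spag17 by 5.58 ± 1.02 (adjusted p = 0.000801). Smaller rises were those of Tppp3 (2.21 ± 0.52), Rsph1 (2.47 ± 0.71), Mns1 (2.28 ± 0.52), Rfx2 (1.63 ± 0.39) and Dnah7b (1.37 ± 0.32). The 2 that did not pass were Rfx3 (0.75 ± 0.29, edgeR adjusted p = 0.0605) and Dnah2 (0.50 ± 0.31, adjusted p = 0.264). With all 3 libraries that stood apart left out, again 36 members passed (29.6% of genes). limma voom with quality weights, which gives less weight to libraries far from their group, called 36 with all libraries (24% of genes), and the 2 it did not call were the same.

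In dwarf mice the log2 fold change was also above 0 for 38 of 38, with a median of 1.40 and a range from 0.39 (Dnah2) to 1.94 (Rsph4a), against 0.00 over all genes. edgeR called 1 member, Rfx3, which rose by 1.12 ± 0.26 (adjusted p = 0.0105), while 11.2% of all tested genes were called. DESeq2 called 1 as well (17.1% of genes). The change of Rfx3 was smaller than that of Dnah5 or Foxj1, which did not pass, and so was its spread: its libraries did not overlap between ages. Dnah5 was at 1.92 ± 1.03 (edgeR adjusted p = 0.23), Hydin at 1.78 ± 1.07 (adjusted p = 0.285) and Foxj1 at 1.39 ± 1.25 (adjusted p = 0.471). The 10 dwarf libraries fitted alone gave 5 calls (33.5% of 15416 genes): Rfx3, Dnah7a, Dnah7b, Mns1 and Enkur. Without the 3 libraries that stood apart, none of them dwarf, 7 were called (28.7% of genes), these 5 with Dnah1 and Ccdc114. limma voom called 38 of 38 (46.7% of genes), the lowest being Dnah2 at 0.54. The dwarf calls thus numbered 1 to 38 over these fits. In the edgeR fit over 20 libraries all groups share 1 estimate of the spread.

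**Figure D5:**
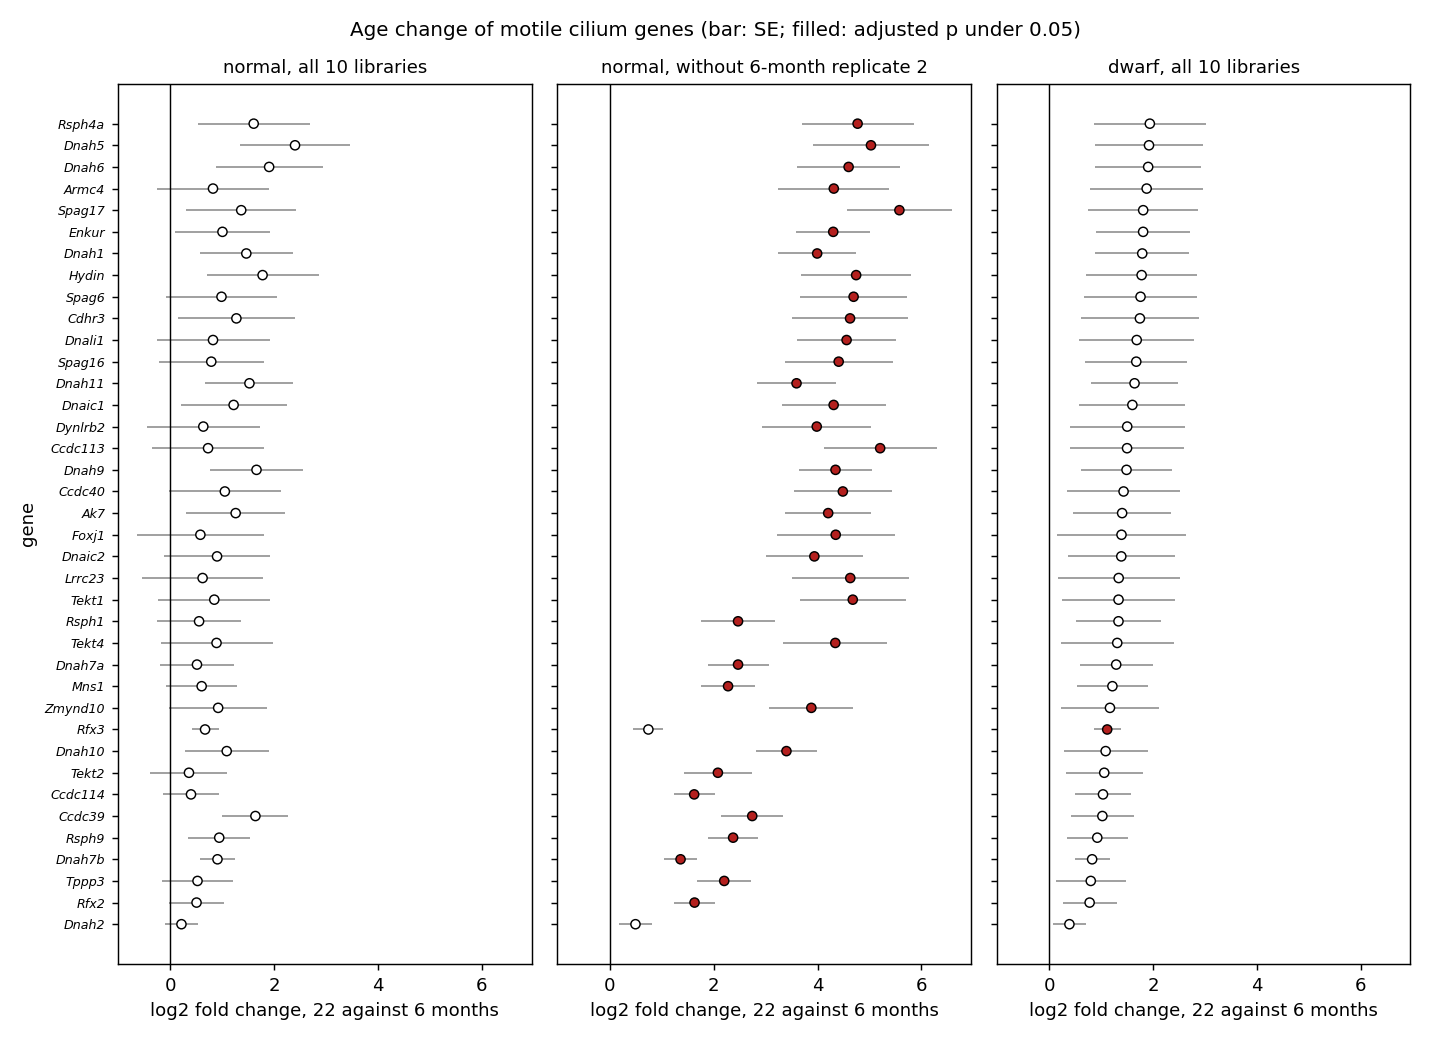
Log2 fold change from 6 to 22 months of each of the 38 genes, in normal mice with all 10 libraries (left), without young replicate 2 (middle), and in dwarf mice (right); bars are standard errors derived from the edgeR F statistic and filled points passed an adjusted p under 0.05. There are 0, 36 and 1 filled points, and all 38 points lie above 0 in each panel.

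The second question was whether genotype mattered at a given age. At 6 months the log2 difference of dwarf from normal had a median of -0.37 over the 38 genes and was above 0 for 7. edgeR and DESeq2 called 0 members (4.57% and 8.78% of all genes). In edgeR an unadjusted p under 0.05 was reached by 0 members and by 2969 of 16099 genes. These values share the young normal libraries with the age comparison in normal mice. Without young normal replicate 2 the median was 2.52, with 11 members higher in dwarf mice (8.97% of genes): Dnah9, Dnah10, Zmynd10, Spag16, Spag17, Ccdc40, Tekt1, Enkur, Tppp3, Ccdc113 and Ak7. The largest of these was Spag16 (4.05 ± 1.04, edgeR adjusted p = 0.0189), and Foxj1 was at 3.22 ± 1.08 (adjusted p = 0.0699). Without all 3 libraries that stood apart 7 of these 11 passed (12.2% of genes). limma voom with all libraries called Tppp3 alone (11.6% of genes). The median difference at 6 months thus changed sign without that 1 normal library, and it was also above 0 with limma voom (2.02) and with the replicate block (0.47).

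At 22 months the median difference between the genotypes was small, but standard errors of single genes were large. For Foxj1 the log2 difference was 0.26 ± 1.22 in edgeR. The median log2 difference was -0.03, with 15 of 38 above 0 (0.03 and 21 of 38 with upper quartile scaling) and a range from -0.48 (Mns1) to 1.33 (Spag16, edgeR adjusted p = 0.529). edgeR and DESeq2 called 0 members (3.81% and 7.46% of all genes). In edgeR an unadjusted p under 0.05 was reached by 2894 of 16099 genes and by 1 member. This was Dnah2, at a log2 difference of 0.82 (edgeR adjusted p = 0.169), which limma voom called (1 of 38, with 14.2% of all genes). Mean Foxj1 was 294 ± 145 CPM in old normal and 370 ± 108 CPM in old dwarf mice (SD, n = 5 each), a difference smaller than either spread.

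The difference between the age changes of the genotypes was also tested. Its median over the members was 0.43, meaning a larger change in dwarf mice, and 32 of 38 values were above 0. edgeR called 0 members and 0 genes in all (0% of 16099, with 1127 genes at an unadjusted p under 0.05), DESeq2 0 members (0.106% of genes) and limma voom 0 members (0.0559% of genes). Without young normal replicate 2 the median turned to -2.60, and no member passed in edgeR (0.00615% of genes, 1 gene). An unadjusted p under 0.05 was then reached by 25 members and by 2386 of 16272 genes. The median also turned to -0.55 with the replicate block (9 of 38 above 0) and to -2.29 with limma voom (2 above 0). No difference between the genotypes in the age change of cilium genes was thus shown.

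Other genes of the cilium were taken from lists by function. Of 75 tested motile axoneme genes outside the 38, edgeR called none in normal mice (median log2 change 0.84, 6.75% of all genes called) and 3 in dwarf mice (median 1.37, 11.2% of all genes called). Of these, Zbbx and Cfap54 rose, by 3.41 ± 0.93 and 2.68 ± 0.57, and Dnah17 fell by 1.65 (edgeR adjusted p = 0.025, 0.0068 and 0.00296). The 2 that rose were scarce. Zbbx was at 0 to 0.83 CPM in young and 1.43 to 2.45 CPM in old dwarf mice. Cfap54 was at 0.20 to 1.13 CPM in young and 2.15 to 3.20 CPM in old dwarf mice. Dnah17 is a heavy chain of the sperm tail, and it was at 15.1 to 19.5 CPM in young dwarf libraries, including those with little Foxj1. Without young normal replicate 2, 64 of the 75 were higher in old normal mice (26.9% of all genes called), with a median of 3.21.

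Genes of intraflagellar transport and of the primary cilium, which the cells of the ovary carry as well, differed less. Of 45 tested, edgeR called 0 in normal mice (median log2 change 0.25, 6.75% of all genes called) and 3 in dwarf mice (median 0.34, 11.2% of all genes called), where Ift74, Ift81 and Tmem67 rose by 0.91, 0.73 and 1.08 (edgeR adjusted p = 0.0112, 0.0381 and 0.0394). In old normal mice 18 of the 45 were higher once young normal replicate 2 was left out (26.9% of all genes called), with a median of 0.48. Their sum was 970 to 2080 CPM in young normal and 1172 to 1867 CPM in old normal mice, so the libraries of young normal mice lay closer together here than for the motile set. Ift88 was at 37.7 CPM in young normal replicate 2 and at 11.3 to 19.0 CPM in the rest of that group.

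Of the 10 tested regulators of multiciliated cell formation other than Foxj1, Rfx2 and Rfx3, 1 was lower with age in both genotypes (6.75% and 11.2% of all genes called) and 0 were higher. With young normal replicate 2 left out, 5 of the 10 were higher and 1 was lower in old normal mice (26.9% of all genes called), with a median log2 change of 2.33 against 0.01 with all libraries. Ccno, a cyclin-like protein that amplifies centrioles and is also found in oocytes, fell by 3.09 ± 0.40 in normal and by 2.82 ± 0.39 in dwarf mice (edgeR adjusted p = 0.00348 and 0.000651). It was at 14.7 to 30.8 CPM in the young normal libraries other than replicate 2, and at 5.61 CPM in replicate 2 where Foxj1 was highest. Its libraries thus ran with those of the oocyte markers, of which 11 of 12 fell in normal and 10 of 12 in dwarf mice. The part of oocyte RNA in the Ccno values was not tested. Trp73 and Myb act upstream of Foxj1. Trp73 ran from 0.74 to 49.9 CPM and was highest in young normal replicate 2, and Myb ran from 0.13 to 42.2 CPM and was highest in old normal replicate 2. With all libraries neither passed with age in normal (edgeR adjusted p = 0.505 and 0.411) or in dwarf mice (edgeR adjusted p = 0.325 and 0.222). In normal mice they rose, without young replicate 2, by 4.02 and 5.57 (edgeR adjusted p = 0.00237 and 0.00222). Mcidas, an early switch of the programme, was at 0.92 to 5.13 CPM in all 20 libraries.

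The 10 tested genes outside the set with the highest Pearson r to the members' mean log2 CPM over 20 libraries were Lrrc48 (0.994), Fam166b, Wdr65, Ubxn10, Adgb, Fhad1, Eno4, Ttc21a, 2310007L24Rik and Ccdc108 (0.991). Lrrc48, Wdr65 and Ccdc108 were on the list of other motile axoneme genes. Lrrc48 ran from 2.09 to 109 CPM and Ccdc108 from 1.11 to 577 CPM. Other list counts in normal mice at 22 against 6 months were 1 of 11 oviduct markers, Cldn4, which rose by 3.62 ± 0.95 (edgeR adjusted p = 0.0293), 2 of 8 surface epithelium markers, Upk1b and Gpm6a, and 0 of 5 uterine markers (6.75% of all genes called). Cldn4 was at 264 CPM in old normal replicate 2 and at 14.8 to 28.9 CPM in the rest of that group. In young normal mice it was at 1.78 to 14.4 CPM. In dwarf mice the list counts were 0 of 11, 2 of 8 (the same 2 genes) and 0 of 5 (11.2% of all genes called). Without young normal replicate 2, 10 of 11 oviduct, 8 of 8 surface epithelium and 4 of 5 uterine markers were higher in old normal mice (26.9% of all genes called).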

How the data were processed

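Polyadenylated RNA of 20 mouse ovaries was sequenced, each library being taken as 1 mouse, and the labels give genotype and age. The authors deposited raw read counts per gene in HTSeq format, 1 table per library. The submitters' processing notes list mm10 as the build and name TopHat, TopHat2 (2.0.10), Bowtie2, edgeR, DESeq and HTSeq. Neither the role of each tool nor the strand setting is known here. The summary rows (9.84 to 17.6% of each table, reads outside genes at 0) stayed out of totals and tests, and 0 columns were left unused. Totals ran from 1365640 to 36068284, which limits rare genes in the shallowest library.

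Symbols were matched to the tables by name or through RefSeq synonyms. The edgeR filter on low counts (filterByExpr) used a minimum of 10 counts and a total of 15, libraries were scaled by TMM, and 4 group means were fitted over 20 libraries with robust quasi-likelihood in edgeR 4.0.16 (R 4.3.3). Calls need a Benjamini-Hochberg adjusted p under 0.05 over 16099 genes. DESeq2 1.42.0, limma 3.58.1 voom, other scalings and filters, the replicate block and leaving out libraries were alternatives. The test was checked on simulated counts. The ratio of Foxj1 to Ovgp1 used a prior count of 0.5, and SDs of log2 CPM had 0.5 added to each count. The Pearson r of genes with the members' mean log2 CPM used a prior count of 2. The genes named are the members, the defining marker of each list and the 10 genes most like the members. Other list genes (Zbbx, Cfap54, Dnah17, Ift74, Ift81, Tmem67, Cldn4, Gpm6a, Krt18, Krt19, Trp73, Myb, Wfdc2 and Sprr2f) were named after their values were seen. Protein sequences were not used here. The correlation of Foxj1 with Ovgp1, planned over 20 libraries, was taken within clusters of libraries. The members and lists were chosen with earlier results of these data known. Nothing says that the libraries of a group were prepared separately, so p-values measure the spread between these samples.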

Additional observations from a re-analysis of the deposited data

Results flagged for a closer look

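In groups of 5, a value was marked where its gap to the nearest other library, divided by the range of the group, exceeded 0.71. Chance alone marks about 1 in 20 groups where values are normally distributed, and the values here were CPM without logs. Of 72 values tested 15 were past this limit, each with young normal replicate 2 as the high library. The sums and the single genes share members and libraries, so these 15 are not independent of each other. For the summed level of all 38 cilium genes the gap was 0.964 of the range. By role it was 0.966 for the transcription factors, 0.903 for the dynein heavy chains, 0.95 for the intermediate and light chains and 0.958 for docking and assembly factors. It was 0.934 for the radial spokes, 0.952 for the central pair, 0.942 for Ccdc39 with Ccdc40, 0.975 for tektins and inner proteins and 0.918 for the other cilium proteins. Among single genes it was 0.96 for Foxj1, 0.931 for Dnah5, 0.938 for Hydin and 0.879 for Tppp3, and for the oviduct gene Ovgp1 it was 0.989. Gene by gene, 35 of 38 members were past the limit in young normal mice and 0 of 38 in each of the other groups. The share of all tested genes past the limit was not computed. These counts therefore do not show whether the cilium genes differ from other genes in this. The part of oviduct tissue in these values was not tested.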

How the results depend on the processing

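In normal mice the count of members higher at 22 months, 0 with all libraries, was 36 with limma voom and 36 without the 3 libraries that stood apart, an alternative chosen after seeing the data. It ranged from 0 to 36 with single libraries left out, 36 being without young normal replicate 2. In dwarf mice the count of 1 became 0 at an adjusted p under 0.01, 5 with the dwarf libraries alone, 7 without those 3 libraries and 38 with limma voom. At 6 months the count between genotypes, 0, was 1 with limma voom, 7 without the 3 libraries and 0 to 11 with single libraries left out, 11 again being without that library. At 22 months it was 1 with limma voom. The Foxj1 difference between genotypes at 6 months turned from -0.55 to 2.85 with limma voom, 0.74 with the replicate block and 3.16 without the 3 libraries, and ran from -1.34 to 3.22 with single libraries left out, the value without that library being 3.22. The replicate block changed no member's call and gave 0, 1, 0 and 0 called members in the 4 pairwise comparisons. Same-numbered libraries share only a number: the correlation of their deviations from the group means had a median of 0.0014 over 30 pairs (-0.22 to 0.72). The Foxj1 to Ovgp1 ratio between genotypes turned to 0.46 at 6 months with Pax8 for Ovgp1 and to -0.22 at 22 months with Dnah5 for Foxj1, and with single libraries left out it ran from -0.30 to 0.40 and from -0.0136 to 0.53. With Tppp3 for Foxj1 the dwarf age difference was -2.80. With single libraries left out the age difference of this ratio ran from -1.34 to -0.80 in normal and from -1.21 to -0.51 in dwarf mice (-1.21 without young dwarf replicate 5 and -0.51 without young dwarf replicate 3). The correlation of Foxj1 with Ovgp1 over 14 libraries fell from 0.68 to 0.53 without the 2 farthest libraries and to 0.57 without young normal replicate 2. The cause of these shifts was not tested. RLE and upper quartile scaling, other filters, DESeq2 and non-robust estimates kept the counts of called members in all comparisons. With dwarf 22-month replicates 1 and 4 summed, also chosen after seeing the data, the dwarf count was 1. Counts of all genes called moved more than 1.5-fold in some settings. For age in normal mice 1086 became 112 at an adjusted p under 0.01, 1766 with DESeq2, 3859 with limma voom, 0 with the normal libraries alone, 4848 without the 3 libraries and 481 to 4384 with single libraries left out (4384 without young replicate 2). For age in dwarf mice 1802 became 503, 2747, 7519, 5169 and 4697 in the same order, 802 to 1681 with single libraries left out and 1107 with the pair summed. Between genotypes at 6 months 735 became 253, 1414, 1860, 244 and 1991, and 369 to 1459. At 22 months 614 became 154 at the stricter threshold, 1201 with DESeq2, 2291 with limma voom, 1762 without the 3 libraries, 262 to 637 with single libraries left out and 272 with the pair summed. For the difference of the age changes 0 became 17 with DESeq2, 9 with limma voom, 202 without the 3 libraries and 1 without young normal replicate 2. Depth limits the shallowest library, where 3 counts are 2.20 CPM.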
